A study of Mus musculus and Homo sapiens with 22 samples.

Results

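The 6 genes described here are Fto and Alkbh5, the known demethylases (erasers) of N6-methyladenosine (m6A) in mRNA, and Mettl5, Zcchc4, Mettl4 and Pcif1, 4 RNA adenosine methyltransferases that act outside the Mettl3 complex. They were taken by name, and all 6 are among the 15731 genes that passed the filter on low counts in the RNA-seq of mouse embryonic stem cells (mESCs). Read counts per gene came from poly(A)+ RNA of 3 cultures of wild-type (WT) mESCs and 3 of Mettl3 knockout (KO) mESCs, which lack the catalytic subunit of the m6A writer complex. Both lines came from an earlier publication and were grown with serum and LIF. The number of KO clones is not given in the sources used here, so genotype and line cannot be told apart. All 7 genes tested on the Y chromosome were called higher in KO, with a median log2 fold change of 9.78. The 2 lines thus also differed widely in reads from that chromosome. m6A sites came from miCLIP2, which crosslinks an m6A antibody to RNA and reads the site from the stop of reverse transcription, followed by m6Aboost, a classifier trained on peaks lost in the Mettl3 KO. Site lists were used for WT mESCs (3 replicates combined), HEK293T cells, a human embryonic kidney line (4 replicates combined), and mouse heart at RNA inputs of 1 µg, 300 ng, 100 ng and 50 ng (1 library each). The sample titles print the last 3 inputs as ug, whereas the file names and the methods give ng. The heart RNA was purchased, and its age and strain are not given.

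FTO and ALKBH5 belong to the AlkB family of iron- and 2-oxoglutarate-dependent dioxygenases and remove the methyl group of m6A by oxidation. FTO also acts on m6Am, a doubly methylated adenosine beside the cap. PCIF1 is the cap-associated enzyme that makes that m6Am, METTL5 methylates an adenosine of the small-subunit rRNA together with its partner TRMT112, ZCCHC4 methylates an adenosine of the large-subunit rRNA, and METTL4 methylates an adenosine of a spliceosomal snRNA. m6A in mRNA lies mostly in the motif DRACH (D is A, G or T; R is A or G; H is A, C or T; the A before C is methylated) and accumulates around stop codons.

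Levels are given in CPM, the read counts of a gene divided by the library size after TMM scaling. Gene counts summed to between 22746733 and 27254245 per library. Replicate 2 of each genotype stood apart, with 16.1% (WT) and 18.0% (KO) of counts in the 10 most abundant genes against 23.1% to 25.5% in the other 4 libraries, and values without both are given where they change the call of a member or related gene. The 8 pluripotency markers were all present, with a summed level of 4371 to 4484 CPM in WT and 3458 to 3572 CPM in KO. Dppa5a and Tfcp2l1 were the 2 that fell, and their part in the values below was not tested. The 9 fibroblast markers, a check for feeder cells, summed to 9.45 to 13.2 CPM in WT and 10.6 to 11.8 CPM in KO. Of them, 6 lay below 1 CPM in every library and Fap was at 0 throughout. Thy1, a surface glycoprotein, was 2.28-fold higher in KO (2.66 ± 0.529 against 6.08 ± 0.583 CPM, SD, n = 3, adjusted p = 0.00206, edgeR) and Pdgfrb, a growth factor receptor, 1.85-fold lower (7.56 ± 1.04 against 4.10 ± 0.352 CPM, adjusted p = 0.00491, edgeR). Their part in the values below was not tested either. Mettl3 itself was counted 560, 698 and 612 times in the WT libraries and 462, 669 and 457 times in the KO libraries, a log2 fold change of -0.50 ± 0.14 (SE) that did not pass the threshold (adjusted p = 0.0134, edgeR). The part of the gene deleted is not given in the sources used here, so counts over the whole gene do not check the labels. Of the 6 heart markers, Ttn, which encodes the giant sarcomere protein titin, had 195 sites in the 1 µg heart list. Ryr2, a cardiac calcium channel, had 23, Tnnt2 had 2 and Myh6 had 1, and Actc1 and Nppa had 0. None of the 6 had a site in the mESC list.

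The transcripts of 5 of the 6 genes carried predicted m6A sites in WT mESCs, 16 sites in all, and Alkbh5 held 9 of them. Fto and Pcif1 followed with 3 and 2 sites, Zcchc4 and Mettl4 had 1 each, and Mettl5 had none. At least 1 site was found in 41.4% of all genes tested. In the 1 µg heart list Alkbh5 again had 9 sites, Pcif1 had 7 and Fto had 4, and the other 3 genes had none, where 49.7% of genes had a site. In HEK293T cells ALKBH5 had 8 sites and PCIF1 had 3, and FTO, METTL5, ZCCHC4 and METTL4 had none, where 34.0% of annotated protein-coding genes had a site. Levels of RNA in heart and HEK293T cells were not measured here, so an absent site and a low level of RNA cannot be told apart there. The lists hold 1 value per site over all replicates, so they give no spread and no depth.

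In mESCs Alkbh5 was the member with the most sites relative to its motifs. Of the 93 DRACH motifs in its longest coding transcript (5730 nt, 4 exons), 8 were sites in mESCs, or 8.60%, beside 2.20% of the motifs of all genes tested. The share was 2.33% for Fto (2 of 86 motifs), 2.13% for Pcif1 (2 of 94) and 0.926% for Zcchc4 (1 of 108). In the 1 µg heart list Alkbh5 (7 of 93 motifs, 7.53%) and Pcif1 (7 of 94, 7.45%) were level, beside 3.57% of the motifs of all genes tested, and the share of Fto was again 2.33%. Both mouse backgrounds include the motifs of genes without a site, and the share among mouse genes with a site was not computed. No mESC site lay on a motif in the longest transcripts of Mettl4 (138 motifs) and Mettl5 (23 motifs in 968 nt). The WT level of Alkbh5 per length lay in the highest quartile of genes tested, where 74.0% of genes had a site, and 9.76% of the genes in that quartile had 9 sites or more. Fto, Pcif1, Mettl4 and Mettl5 lay in the third quartile, in which 65.7% of genes had a site, and Zcchc4 in the second, with 25.5%. In HEK293T cells 6 of 40 motifs of ALKBH5 and 3 of 40 of PCIF1 were sites, beside 1.94% of the motifs of all protein-coding genes and 5.29% of those of the genes with a site. Human genes were not filtered by level, so this background cannot be set against the mouse one.

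The 9 mESC sites of Alkbh5, on the plus strand of mouse chromosome 11 (GRCm38), ran from the 5′ UTR into the 3′ UTR. The furthest lay 2121 nt after the end of the stop codon, in a 3′ UTR of 4097 nt. A single site lay in the 5′ UTR, 5 in the coding sequence, of which 4 were in exon 1, and 3 in the 3′ UTR. The 3 sites shown here in both species are those whose surroundings are nearly the same in mouse and human, and the fourth was found in the mESC list and in the 2 largest heart lists. Each window of 21 nt was read from the genome and is centred on the site, and the capitals mark the pentamer with the methylated A in its middle.
mouse Alkbh5, 997 nt before the end of the stop codon: taccaggaGGACTcggacccc
human ALKBH5, 997 nt before the end of the stop codon: tatcaggaGGACTcggacccc
mouse Alkbh5, 787 nt before the end of the stop codon: cgcaacaaGTACTtcttcggc
human ALKBH5, 787 nt before the end of the stop codon: cgcaacaaGTACTtcttcggc
mouse Alkbh5, 425 nt before the end of the stop codon: ggggagcgTGACTgtgctcag
human ALKBH5, 425 nt before the end of the stop codon: gggaagcgTGACTgtgctcag
mouse Alkbh5, 688 nt before the end of the stop codon: gagatcccGGACTgggtgcat

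The mouse windows lie at chr11:60538603-60538623, chr11:60538813-60538833, chr11:60539175-60539195 and chr11:60538912-60538932, all in exon 1. The human windows lie at chr17:18184421-18184441, chr17:18184631-18184651 and chr17:18184993-18185013 (GRCh38, plus strand), also in exon 1. The pair at 787 nt had 21 of 21 bases in common and sat on GTACT, which is no DRACH motif. The pairs at 997 and 425 nt had 20 of 21 bases in common. The site at 997 nt was in the mESC list with a score of 0.554, higher than that of only 8.39% of sites in that list, and was in no heart list. The site at 425 nt was in the mESC, the 1 µg heart and the 300 ng heart lists. The other 5 human sites had no mouse site at the position of their best match, except the site in the human 3′ UTR, whose best match of 12 of 21 bases is not a like position. Among them, the human sites at 157 and 517 nt before the end of the stop codon matched mouse windows at the same distance with 18 and 17 of 21 bases and an intact pentamer, GGACA and CGACT, yet no mouse list held a site there.

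**Figure D1:**
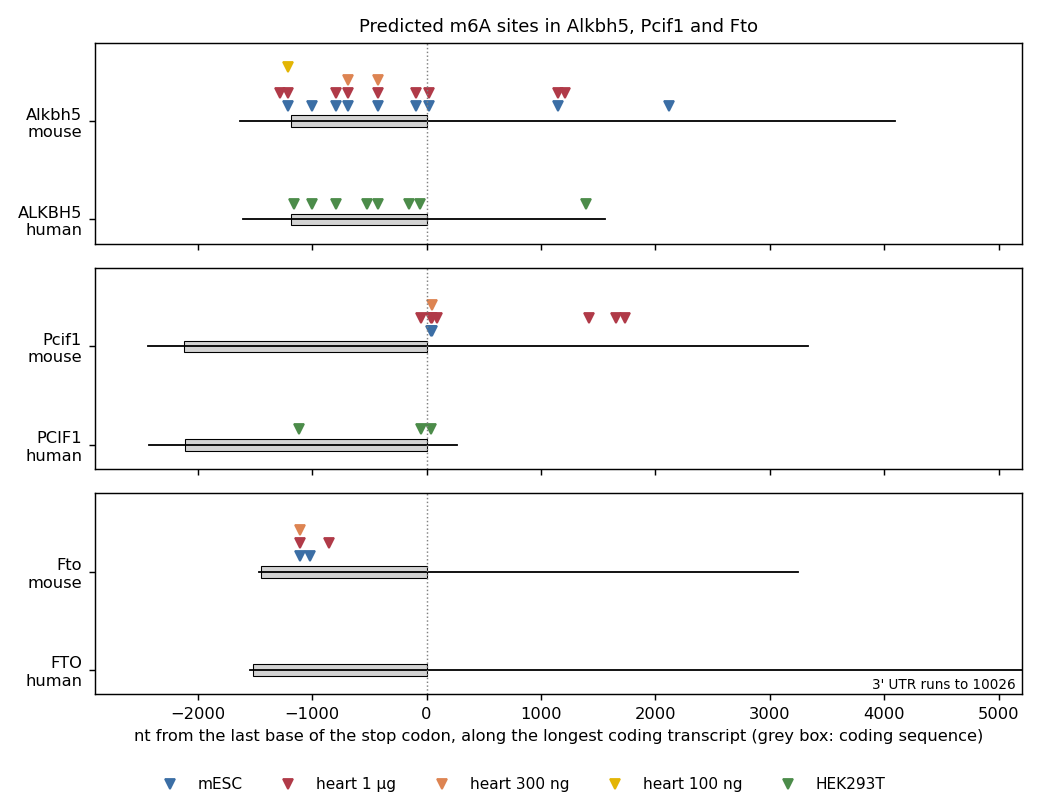
Predicted m6A sites (triangles, coloured by list) along the longest coding transcripts of mouse and human Alkbh5, Pcif1 and Fto, with the distance in nt from the last base of the stop codon on the x axis and the coding sequence as a grey box. Mouse Alkbh5 sites spread from the 5′ UTR to 2121 nt after the end of the stop codon. The 2 mESC sites of Pcif1 lie 43 and 52 nt after the stop codon, and human FTO has no site. Sites outside the longest transcript are not drawn.

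Alkbh5 sites were largely the same in mESCs and heart. Of the 9 sites in each list, 7 were at the same position (77.8% of either list). Over the 6 genes, 11 of the 16 mESC sites (68.8%) were in the 1 µg heart list, where they were 11 of 20 sites, beside 59.7% of the mESC sites and 33.7% of the heart sites of all genes. The sites of mESCs alone were those at 997 nt before and 2121 nt after the end of the stop codon, and the sites of heart alone were a 5′ UTR site 1277 nt before it and a GTACA site 1209 nt after it. The position scores ranked differently in both lists. In mESCs the site at 688 nt before the stop codon end had the highest Alkbh5 score, above 73.0% of all sites of the list, and in heart the 5′ UTR site at 1213 nt before it did, above 95.1%. The scale of the heart scores is not stated, so only ranks within a list are given.

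The lists from lower heart inputs held few sites in these genes. The 300 ng list held 4, of which 2 were in Alkbh5 (688 and 425 nt before the stop codon end) and 1 each in Fto and Pcif1. All 4 were also in the 1 µg list and in the mESC list, beside 93.5% and 54.1% of the 300 ng sites of all genes. In the 300 ng list 20.5% of genes tested had a site. The 100 ng list held 1 site, the Alkbh5 5′ UTR site at 1213 nt, and 4.04% of genes had a site. The 50 ng list held no site in the 6 genes, where 1.06% of genes had one. With 1 library per input, these counts have no replicate check.

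Pcif1 carried a close pair of sites just after its stop codon, in the last of its 17 exons. Both were in the mESC list, with scores above 68.5% and 76.9% of its sites, and in the 1 µg heart list, where the order of the pair was the other way round (above 89.5% and 74.6%). Human PCIF1 had a site at the same distance as the nearer site of the pair, 43 nt after the stop codon, with the highest score of any member site in that list (0.935, above 97.5% of sites). The windows are shown because the site position was the same in mouse and human although only 14 of the 21 bases around it were.
mouse Pcif1, 43 nt after the stop codon: gctgtcacAGACTgctaggac
human PCIF1, 43 nt after the stop codon: gctagtctGGACTgctgggac
mouse Pcif1, 52 nt after the stop codon: gactgctaGGACTcagcctca

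The mouse windows lie at chr2:164891150-164891170 and chr2:164891159-164891179 (GRCm38, plus strand) and the human window at chr20:45947788-45947808 (GRCh38, plus strand). The human site 52 nt before the end of the stop codon had a mouse window with 20 of 21 bases in common at the same distance, including the pentamer GGACC. No mouse list held a site there, and the human site ranked low in its own list, above 19.5% of sites. The 5 sites of Pcif1 that were in heart and not in mESCs lay 46 nt before the stop codon end and 89, 1417, 1652 and 1734 nt after it. Of these, 4 ranked low, above at most 10.8% of heart sites, and the site at 1652 nt ranked above 53.8%.

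The rRNA and snRNA methyltransferases had few sites. The Zcchc4 site lay 143 nt after the stop codon in the 3′ UTR, in exon 12, and the Mettl4 site lay outside the longest coding transcript, in the 5′ UTR of another one. Both ranked low in the mESC list, above 37.1% and 14.3% of its sites, and neither was in a heart list.
mouse Zcchc4, chr5:52819537-52819557, plus strand: tgcttcctAGACTctgcgggc
mouse Mettl4, chr17:94749651-94749671, minus strand: agtgctgtGGACTaccgccgc

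Fto had 3 sites in mESCs. Of these, 2 lay in exon 3 of its longest coding transcript, within the coding sequence 1110 and 1015 nt before the end of the stop codon (chr8:91409435 and chr8:91409530, plus strand, GRCm38), on the pentamers AGACT and TGACT. The third lay at chr8:91667281 in the 3′ UTR of another Fto transcript, on ATACT, which is no DRACH motif, with a low score (above 4.48% of sites). The exon 3 site at 1110 nt was the Fto site seen most often, in the mESC, 1 µg and 300 ng heart lists, and in the 1 µg list it ranked above 93.9% of sites. The 1 µg heart list also held the ATACT site, a further exon 3 site 851 nt before the stop codon end and a site at chr8:91667230. Human FTO, with 217 DRACH motifs in a transcript of 11573 nt, had no site in HEK293T cells.

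Taken over the 6 genes, most member sites lay in DRACH. In mESCs 14 of 16 sites (87.5%) did and 6 (37.5%) were on GGACT, where the whole list had 92.9% and 22.9%. In the 1 µg heart list 17 of 20 were in DRACH and 6 on GGACT, where the list had 93.1% and 21.5%. In HEK293T 9 of 11 were in DRACH and 4 on GGACT, where it had 89.3% and 19.9%. The share on GGACT was thus above that of the list in all 3, the share in DRACH below it, and neither difference was tested. The mESC and heart counts share 11 positions. Over the mouse lists the 6 genes had 25 distinct positions, 11 of them in Alkbh5, 7 in Pcif1 and 5 in Fto. Motif letters and transcript region are inputs of m6Aboost, so they describe how sites were predicted as well as where they lie.

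In the main fit, which did not pair the libraries, Fto was the single member that changed in KO at the threshold used throughout. That threshold was an adjusted p of at most 0.01 in edgeR's quasi-likelihood test over all genes tested. Alkbh5 and Mettl4 shifted by amounts of similar size without passing it in this fit. Mettl5, Zcchc4 and Pcif1 differed by under 0.11 on the log2 scale. Of all genes, 29.7% were called, 17.1% as higher and 12.6% as lower in KO, beside which 1 of the 6 members was called. Scaled by library size alone, 2937 genes were higher and 1199 lower, against 2687 and 1982. At an unadjusted p under 0.05, 1 member (Mettl4) was higher and 2 (Fto and Alkbh5) were lower, beside 27.9% and 26.1% of all genes. The groups of libraries did not overlap for 2 of the 6, Fto and Mettl4, beside 56.1% of all genes. With the replicate number as a block, 2 of the 6 were called, beside 43.5% of all genes. They were Fto and Alkbh5 (edgeR adjusted p = 0.00134 and 0.00301). In bulk RNA, fewer cells of a type and less RNA per cell cannot be told apart.

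Fto fell. Its WT libraries had 2226, 2834 and 2052 counts, which is 105, 108 and 97.0 CPM after TMM scaling, and its KO libraries had 1950, 2387 and 2025 counts, or 77.6, 80.6 and 74.8 CPM. Every KO library lay below every WT library. The mean went from 103 ± 5.69 to 77.7 ± 2.88 CPM (SD, n = 3), a log2 fold change of -0.41 ± 0.10 (SE), or 1.33-fold lower, with an adjusted p of 0.00655 by edgeR. The call was kept without WT replicate 3 (adjusted p = 0.00298) and was lost when any of the other 5 libraries was left out (edgeR adjusted p from 0.0140 to 0.0393, log2 fold change from -0.43 to -0.38).

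Fto lies on mouse chromosome 8 (chr8:91313525-91668439, plus strand), and it changed by about the median of that chromosome. The 829 genes tested there had a median log2 fold change of -0.44, with quartiles of -0.84 and 0.05, where the median of all genes was -0.02. Fto was 0.03 above the chromosome's median, and 52.5% of the chromosome's genes had a lower value. Of these genes 287 were called lower and 61 higher. The nearest genes before Fto gave nearly the same value as Fto. Rpgrip1l, a ciliary gene that starts 263 bases away in the opposite direction, was at -0.41 ± 0.20 (SE, adjusted p = 0.121, edgeR), and Aktip at -0.42 ± 0.12 (adjusted p = 0.0180, edgeR). On the other side Gm9619 (-0.40 ± 0.37) and Irx3, a homeobox gene (0.07 ± 0.39), had at most 54 counts per library, too few for a close estimate. Gm45289, Gm45294 and Gm45292, which lie within the Fto gene on its strand, were at -1.46 ± 0.41, -1.40 ± 0.44 and -1.10 ± 0.35 with at most 35 counts per library (edgeR adjusted p of 0.0143, 0.0240 and 0.0268). A shift of the whole chromosome and a shift of Fto alone were not tested against each other.

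The other 5 genes lie on chromosomes without such a shift. The medians were -0.00 for chromosome 11 (Alkbh5), 0.08 for chromosome 2 (Mettl5 and Pcif1), -0.11 for chromosome 17 (Mettl4) and -0.03 for chromosome 5 (Zcchc4). Relative to its chromosome's median, Alkbh5 was at -0.42 and Mettl4 at 0.40. The 3 genes whose log2 CPM followed Fto most closely over the 6 libraries were Rpl29, a ribosomal protein gene (Pearson r = 0.999), Riok3, a kinase gene (0.999), and Meg3, a long non-coding RNA (0.998). With 6 libraries in 2 groups, 623 of 10853 genes reached an r above 0.95, so many genes shared this pattern.

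**Figure D2:**
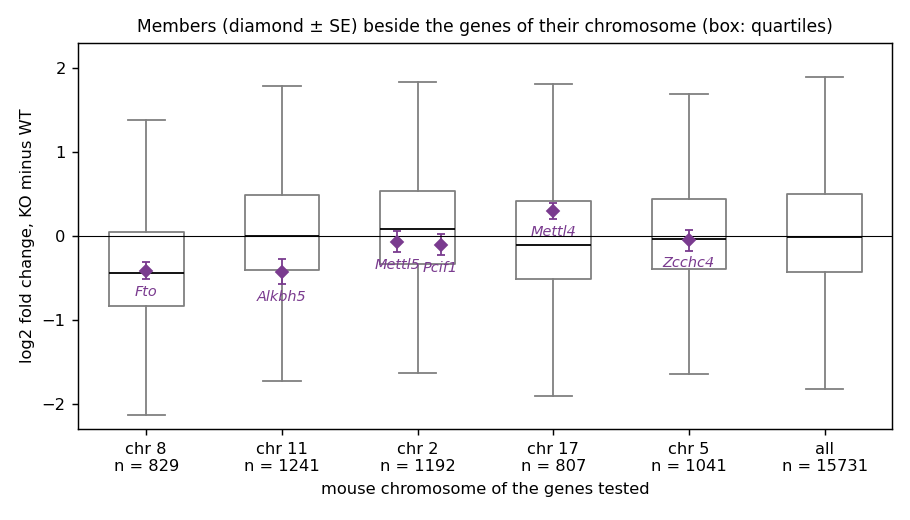
Log2 fold change (KO minus WT) of the 6 members (diamonds, ± SE) beside all genes tested on the same mouse chromosome and all genes (boxes, quartiles with the median as a line, whiskers to the furthest value within 1.5 box heights). Fto sits at the median of chromosome 8, and Alkbh5 and Mettl4 lie 0.42 below and 0.40 above the medians of theirs.

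Alkbh5 had a difference close in size to that of Fto, and the widest spread of the 6. Which of the pair was larger turned with the setting: without WT replicate 1 Alkbh5 was at -0.32 and Fto at -0.40. It spans chr11:60536381-60558512 on the plus strand. Its counts were 5908, 4919 and 5549 in WT and 4837, 5001 and 4898 in KO, or 279, 187 and 262 CPM against 193, 169 and 181 CPM. WT replicate 2 lay within the KO range, and the other WT libraries lay above all KO libraries. The means were 243 ± 48.8 and 181 ± 11.9 CPM (SD, n = 3), with a log2 fold change of -0.43 ± 0.15 (SE) and a 95% interval of -0.75 to -0.10. It did not pass the threshold (adjusted p = 0.0373, edgeR). With the replicate number as a block (same-numbered libraries deviated together), the value was -0.41 ± 0.10 and passed it (adjusted p = 0.00301, edgeR), and without WT replicate 2 it was -0.59 ± 0.12 and passed it too (adjusted p = 0.00267, edgeR). Genes with 9 or more mESC sites, as many as Alkbh5 has, had a median log2 fold change of 0.20 (606 genes). Of them, 164 (27.1%) were called higher and 46 (7.59%) lower, beside 17.1% and 12.6% of all genes. Genes with 0 and with 1 to 8 sites had medians of -0.03 and -0.02. A value lower than that of Alkbh5 was found in 10.9% of genes with 9 or more sites and in 25.2% of all genes.

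**Figure D3:**
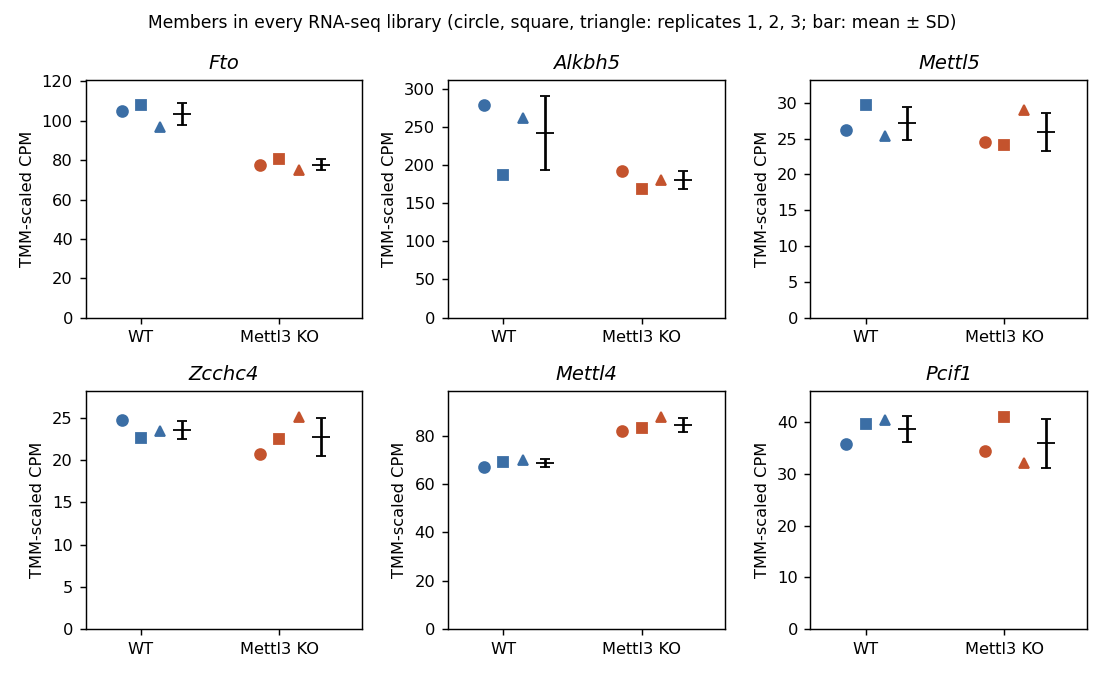
TMM-scaled CPM (y axis, linear, from 0) of the 6 members in each WT (blue) and Mettl3 KO (orange) library, with the symbol giving the replicate and the bar the mean ± SD of 3 libraries. The groups do not overlap for Fto and Mettl4, and WT replicate 2 of Alkbh5 (187 CPM) lies among the KO libraries (169 to 193 CPM).

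Mettl4, the snRNA methyltransferase, had higher values in KO without passing the threshold. It spans chr17:94722590-94750019 on the minus strand. Its counts were 1417, 1821 and 1483 in WT and 2064, 2470 and 2381 in KO, or 66.9, 69.3 and 70.1 CPM against 82.1, 83.4 and 88.0 CPM, with every KO library above every WT library. The fitted difference on the log2 scale was 0.30 ± 0.09 (SE), with a 95% interval of 0.09 to 0.51 and an adjusted p of 0.0262 by edgeR. Mettl4-ps1, an annotated pseudogene copy of Mettl4 on the same chromosome, had 0 to 3 counts per library. Reads that fit both copies were kept at 1 place by the authors, so a part of them could be split between the 2.

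The 2 rRNA methyltransferases and Pcif1 had values that overlapped between the genotypes. Mettl5 spans chr2:69871198-69885615 on the minus strand, Zcchc4 chr5:52775409-52824665 and Pcif1 chr2:164879304-164894454, both on the plus strand. Mettl5 had 556, 779 and 538 counts in the WT libraries and 616, 716 and 784 in the KO libraries (27.1 ± 2.25 and 25.9 ± 2.67 CPM, SD, n = 3), and its log2 fold change of -0.07 had a 95% interval of -0.35 to 0.21. Zcchc4 had 524, 594 and 497 counts in the WT libraries and 520, 667 and 682 in the KO libraries (23.6 ± 1.06 and 22.8 ± 2.26 CPM), with -0.05 and an interval of -0.32 to 0.22. Pcif1 had 757, 1041 and 857 counts in the WT libraries and 866, 1217 and 868 in the KO libraries (38.6 ± 2.54 and 35.9 ± 4.67 CPM), with -0.11 and an interval of -0.38 to 0.17. The edgeR adjusted p-values were 0.684, 0.762 and 0.507. When libraries were scaled by their total alone, the 3 values were 0.028, 0.056 and 0.00044, so the signs are not settled. Mettl5 overlaps the gene Gm13625 on its own strand, so reads in the shared part may be missing from its count.

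Per length, Alkbh5 was the most abundant of the 6 in either genotype. In TMM-scaled CPM per kb of merged exons, its level was 40.6 ± 8.15 in WT mESCs (SD, n = 3) and 30.2 ± 1.98 in the KO, higher than that of 93.8% of genes tested in WT. In WT the order was then Mettl5 (11.1 ± 0.923), Mettl4 (8.56 ± 0.208), Fto (7.93 ± 0.436), Pcif1 (5.90 ± 0.388) and Zcchc4 (2.17 ± 0.0976), with no overlap between neighbours, although the lowest Mettl4 library (8.32) and the highest Fto library (8.28) nearly met. In KO the order of the means was the same. Mettl5 (10.6 ± 1.10) and Mettl4 (10.5 ± 0.381) overlapped, with Mettl5 the higher in only 1 of the 3 libraries. Fto (5.96 ± 0.221) and Pcif1 (5.48 ± 0.713) overlapped too, with Fto the higher in 2. The place of Fto depends on the length used, because its merged exons (13031 nt) are far longer than its longest coding transcript (4707 nt). By the latter its WT level was 22.0, above Mettl4 (10.4) and below Mettl5 (28.0).

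**Figure D4:**
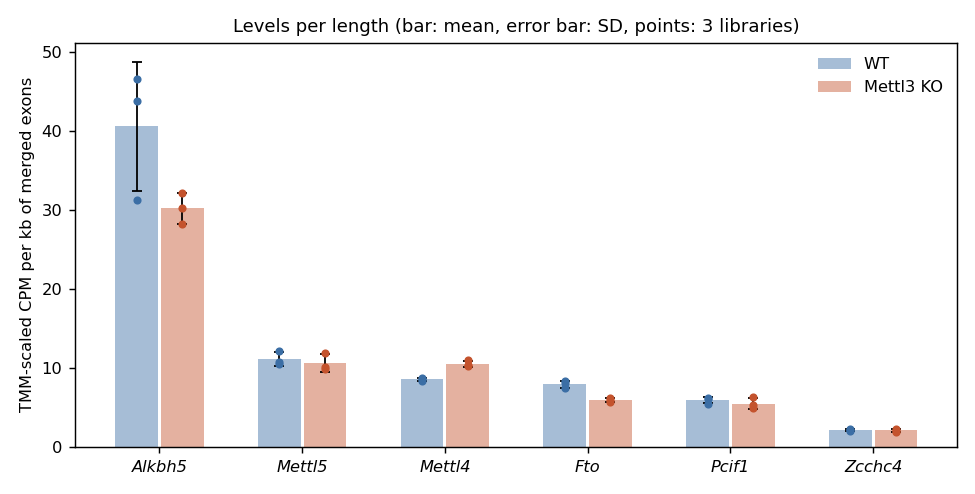
Levels per length (TMM-scaled CPM per kb of merged exons, y axis from 0) in WT (blue) and Mettl3 KO (orange) mESCs, as means (bars) with SD (error bars) and the 3 libraries (points). Alkbh5 stands at 40.6 in WT, above Mettl5 at 11.1 and the other 4 genes, and Zcchc4 is the lowest at 2.17.

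Of 29 related genes in 4 lists, 9 rose and 3 fell in KO, and the median log2 fold change was 0.17. Over all genes tested, 17.1% were called higher and 12.6% lower, and the median was -0.02. With the replicate block 13 of the 29 rose and 6 fell, where 43.5% of all genes were called, 3694 as higher and 3143 as lower. When 1 library was left out, 8 to 10 rose and 0 to 3 fell, and without both replicate 2 libraries 6 rose and 2 fell. The balance moved with the processing: 11 rose and 1 fell when scaled by library size alone, and 13 rose and 1 fell without a filter on low counts. The other 7 members of the AlkB family had 2 that rose, Alkbh4 (0.93 ± 0.16, SE, adjusted p = 0.00116, edgeR) and Alkbh8, a tRNA-modifying member (0.58 ± 0.10, adjusted p = 0.00129, edgeR). Alkbh8 lost its call without both replicate 2 libraries (edgeR adjusted p = 0.0121). Alkbh6 (-0.49) and Alkbh7 (-0.50) had values like those of Fto and Alkbh5 but did not pass the threshold, and Alkbh1, Alkbh2 and Alkbh3 lay between -0.05 and 0.18. The family's median was 0.13.

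Enzymes that share a substrate or a partner with the members went both ways. Cmtr2, which methylates the ribose of the second nucleotide after the cap, had the largest change in the lists, with 255, 296 and 285 counts in the WT libraries and 955, 949 and 1105 in the KO libraries (1.59 ± 0.14, SE, adjusted p = 2.43e-05, edgeR). It lies on chromosome 8, as Fto does. Trmt112, the partner of Mettl5, fell, with a value close to the threshold (-0.56 ± 0.14, adjusted p = 0.00989, edgeR). It lost the call when any library was left out (edgeR adjusted p from 0.0112 to 0.0561), and also without both replicate 2 libraries (0.0247). Cmtr1, the ribose methyltransferase of the nucleotide next to the cap, was at -0.73 and Rnmt, the cap guanosine methyltransferase, at -0.38, neither passing it, and Ramac, the activator of Rnmt, was at 0.06. With the replicate block Cmtr1 and Rnmt both passed it (edgeR adjusted p = 0.00600 and 0.00328). Cmtr1, but not Rnmt, also passed it in DESeq2 (adjusted p = 0.00376) and in edgeR without WT replicate 3 (adjusted p = 0.00501).

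Among 9 other RNA adenosine methyltransferases 2 fell and none rose in edgeR, beside 12.6% and 17.1% of all genes. At an unadjusted p under 0.05, 4 had higher values, beside 27.9% of all genes. DESeq2 called 1 of the 9 higher and 2 lower. With the replicate block 4 rose and 2 fell, those that rose being Mettl16, Rrp8, Trmt10c and Trmt61a (edgeR adjusted p = 0.000565, 0.000407, 0.00212 and 0.00539). Trmt61b, the gene of a mitochondrial tRNA methyltransferase, whose transcripts in the annotation used are typed as antisense RNA without a coding sequence, was 2.14-fold lower (-1.10 ± 0.20, SE, adjusted p = 0.00159, edgeR), and Dimt1, which dimethylates adenosines of the small-subunit rRNA, lay at the threshold (-0.47 ± 0.12, adjusted p = 0.00999, edgeR). Dimt1 lost its call when any library but WT replicate 3 was left out and without both replicate 2 libraries (0.0614), and Trmt61b lost it without KO replicate 3 (edgeR adjusted p = 0.0103). Scaled by library size alone, the list had 2 genes that rose and 1 that fell. Mettl16, the methyltransferase of a spliceosomal snRNA and of the Mat2a mRNA, had 1685, 1500 and 1964 counts in the WT libraries and 2859, 2428 and 3215 in the KO libraries but overlapping CPM (0.46 ± 0.19, adjusted p = 0.0692, edgeR, without the block). Without the block, Trmt6, Trmt61a, Trmt10c, Rrp8, Tfb1m and Tfb2m lay between -0.25 and 0.55 and did not pass it. The list's median was 0.17.

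The writer complex, listed for contrast, had 6 of 8 genes that rose and none that fell in edgeR, beside 17.1% and 12.6% of all genes. The complex had a median of 0.75, against -0.02 over all genes. Mettl3 was the 1 gene lower at an unadjusted p under 0.05, and DESeq2 called it lower (adjusted p = 0.00418), as did edgeR with the replicate block (0.00281), without KO replicate 2 (0.00685) and without both replicate 2 libraries (0.00971). Wtap, the regulatory subunit, rose 2.52-fold (1.33 ± 0.10, SE, adjusted p = 1.28e-05, edgeR), and Rbm15, Rbm15b, Virma, Cbll1 and Zc3h13 rose by 0.94, 0.95, 0.90, 0.60 and 0.55. Zc3h13 lost its call when any library but KO replicate 3 was left out (edgeR adjusted p from 0.0101 to 0.0243). Without both replicate 2 libraries Zc3h13 and Cbll1 lost theirs (0.0400 and 0.0183), leaving 4 genes that rose and 1, Mettl3, that fell. Mettl14, the structural partner of Mettl3, was at -0.00 (95% interval -0.23 to 0.23). None of the 6 members had a value as high as the lowest of the 6 that rose.

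**Figure D5:**
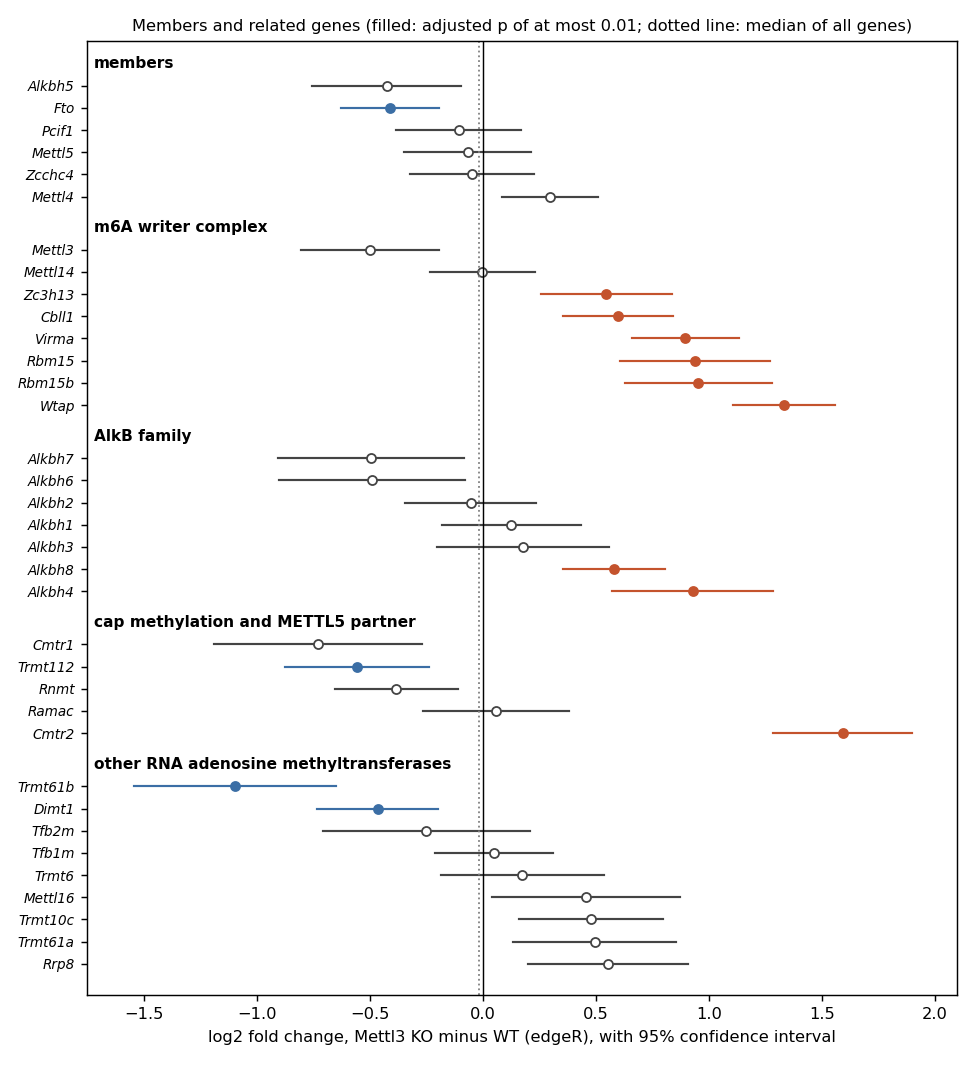
Log2 fold change (KO minus WT, edgeR) with 95% confidence interval of the 6 members and 29 related genes, filled where the adjusted p was at most 0.01, with the median of all genes tested as a dotted line (-0.02). Fto is the only filled member, 6 of 8 writer complex genes are filled on the right, and Cmtr2 is furthest from 0 at 1.59.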

How the data were processed

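The authors deposited gene counts of 6 mESC RNA-seq libraries, which they made by mapping single-end reads of a stranded poly(A)+ protocol to GRCm38.p6 with STAR 2.6.1b and counting with HTSeq 0.12.4 on the reverse strand. All 6 libraries shared a flow cell. They also deposited site lists with a score per site. For these they mapped miCLIP2 reads with STAR 2.7.3a, removed duplicates with UMI-tools 1.0.0, called peaks per replicate and scored peaks on an adenosine with m6Aboost. Where there were several replicates, peaks seen in 2 or more were taken, and how the heart inputs of 1 library each were filtered is not given in the sources used here. The scores of the mESC and HEK293T lists lie between 0.5 and 1. The heart scores have another, unstated scale and were only ranked.

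The 6 genes, the related lists and the tests were chosen with earlier results of these data known. The summary lines at the end of each count file, which name no gene and hold 36.7% to 42.7% of its total, were left out. Genes were tested with edgeR 4.0.16 in R 4.3.3 (filterByExpr, TMM, glmQLFit, glmQLFTest, KO against WT, no covariates), and p-values were adjusted by Benjamini-Hochberg over 15731 genes. The SE is the size of the log2 fold change divided by the square root of F. The script was tested on simulated data, where 86.0% of 200 genes changed 2-fold were recovered among 15732 tested. Same-numbered WT and KO libraries deviated together (correlations of 0.22, 0.55 and 0.44 over 10854 genes), so replicate numbers were taken to pair the libraries. Only the fit with the replicate block uses this pairing, and the main fit leaves it out. Alternatives were DESeq2 1.42.0, other scalings and filters, a threshold of 0.05, the block and leaving out libraries. Leaving out both replicate 2 libraries was chosen after seeing the data.

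Sites were assigned with bedtools 2.31.1 to exons of a single gene on the same strand (GENCODE M21 and 44, where the authors used M23 and 31). A site rank is the percent of sites in its list with a score at or below it. Likeness to Fto was computed on log2 CPM (prior count 2) over genes that averaged 100 counts or more. Named genes were the members, the related lists, Mettl3, markers, the 2 nearest genes on each side of Fto and the 3 most like it. Windows of sites on some chromosomes are not shown. Figures were drawn with matplotlib 3.10.9.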

Additional observations from a re-analysis of the deposited data

How the results depend on the processing

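The direction of Fto, Alkbh5 and Mettl4 was the same in all 14 alternatives, and the calls moved. Among the 14, the threshold of 0.05 reuses the main fit, so it could not change a direction. Scaling by library size alone raised the median of all genes from -0.02 to 0.08. It left no member called, with Fto at -0.31 (edgeR adjusted p = 0.0725), and turned Mettl5 to 0.028, Zcchc4 to 0.056 and Pcif1 to 0.00044. It called 2937 genes higher and 1199 lower, against 2687 and 1982. Without a filter on low counts no member was called, and Fto was at -0.38 (adjusted p = 0.0162). At an adjusted p of 0.05, 7336 genes, 3 members (Fto, Alkbh5 at -0.43 and Mettl4 at 0.30) and 19 related genes were called. With the replicate block, 2 members (Fto and Alkbh5, at -0.41) and 19 related genes were called, and 6837 genes in all. DESeq2 called Fto alone among the members (adjusted p = 0.000721) and 5481 genes.

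Leaving out 1 library in turn gave 2761 (without KO replicate 1) to 5412 (without WT replicate 3) genes called, 9 to 12 related genes and 0 to 1 members. The ranges were -0.46 to -0.38 for Fto, -0.59 to -0.32 for Alkbh5, 0.27 to 0.32 for Mettl4, -0.15 to -0.01 for Mettl5, -0.21 to -0.02 for Pcif1 and -0.12 to 0.02 for Zcchc4, whose sign turned without KO replicate 1 (0.019). Leaving out WT replicate 1 gave 3108 genes and KO replicate 3 gave 3109. Without both replicate 2 libraries 3042 genes were called, Fto lost its call (-0.42, adjusted p = 0.0224), Alkbh5 gained one (-0.55, adjusted p = 0.00747) and Mettl5 was at 0.035. The cause was not tested.

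With the longest coding transcript as length, the WT and KO levels were 22.0 and 16.5 for Fto, 28.0 and 26.7 for Mettl5, 4.11 and 3.97 for Zcchc4, 10.4 and 12.7 for Mettl4, and 6.69 and 6.21 for Pcif1. Those of Alkbh5 moved by less than their SD. At or above the median score of their list, the members had 8 sites in mESCs, 11 in heart at 1 µg, 0 at 100 ng and 3 in HEK293T, by construction fewer. The other site assignments and the limit on chromosome 8 genes changed no value beyond these bounds. The site lists carry no depth, so an absent site says only that none was predicted.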
